A study of Homo sapiens with 6 samples.

Results

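The 34 genes described here encode the folding and disposal machinery of the endoplasmic reticulum (ER): chaperones, disulfide isomerases, the sensors of unfolded protein, and the factors of ER-associated degradation (ERAD). They were chosen by gene name, and all 34 were found among the 60612 gene identifiers of the count table. All 34 passed the filter on low counts, as did 17723 genes in all. The libraries came from U251, an established human glioma line, with 3 control libraries and 3 in which TEAD3 was knocked down by transient transfection. TEAD3 encodes a TEAD family transcription factor that binds DNA with the Hippo pathway coactivators. The labels call the controls normal control and do not say what they were transfected with. For the knockdown they mention a plasmid vector as well as an siRNA, and they do not state whether replicates came from separate cultures. The p-values therefore describe variation among these libraries, and that variation may be technical.

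Proteins bound for the cell surface or for secretion fold in the ER with help from the chaperone BiP (HSPA5), the lectin chaperones calnexin and calreticulin, and protein disulfide isomerases. Proteins that fail to fold are carried back to the cytosol and degraded, which is ERAD. When unfolded protein accumulates, the sensors IRE1 (ERN1), ATF6 and PERK (EIF2AK3) start the unfolded protein response, in which ATF6 and the spliced form of XBP1 induce most of the chaperone and ERAD genes. Glioma cells make matrix proteins and surface receptors that fold in the ER.

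ATF6 and XBP1 act through the ER stress response element (ERSE), and its letters are shown because they tie the members to the sensors. The element, CCAAT and CCACG with 9 bases of any kind between them, was searched on both strands of RefSeq promoter windows (GRCh38.p14), which run from 250 bases before to 50 bases after an annotated start. Windows were found for 31 of the 34 members, and 8 of these (25.8%) held the element, against 0.0916% of the 27305 genes with a window. A related element, ERSE-II (ATTGG and CCACG with 1 base between), was in 3 members (9.68%) and in 0.0696% of all genes with a window. ERSE was first described in promoters of members of this list, so these shares are a description of the list and not independent evidence about it. The stretch of the HSPA5 promoter from 180 bases before the start up to it (chr9:125241344-125241523, minus strand) holds 2 CCAAT boxes and 1 CCACG, in capitals:
HSPA5: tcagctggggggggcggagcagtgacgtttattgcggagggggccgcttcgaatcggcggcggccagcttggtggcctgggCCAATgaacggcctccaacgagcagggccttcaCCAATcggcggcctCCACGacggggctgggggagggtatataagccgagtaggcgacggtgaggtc
In the next sequences, from chaperone, oxidase and secreted-protein genes, the whole element is in capitals and is in reverse orientation to the gene (CALR chr19:12938369-12938417, plus strand; CRELD2 chr22:49918539-49918587, plus strand; ERO1B chr1:236282168-236282208, minus strand; ERSE-II of SDF2L1 chr22:21642099-21642139, plus strand; the ERSE-II nearer the start of HYOU1 chr11:119057259-119057299, minus strand):
CALR: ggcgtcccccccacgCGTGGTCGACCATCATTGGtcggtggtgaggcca
CRELD2: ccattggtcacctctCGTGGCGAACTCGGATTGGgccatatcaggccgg
ERO1B: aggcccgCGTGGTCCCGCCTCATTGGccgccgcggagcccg
SDF2L1: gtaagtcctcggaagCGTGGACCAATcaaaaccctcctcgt
HYOU1: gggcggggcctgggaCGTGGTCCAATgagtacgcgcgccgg
Elements were also found for XBP1 (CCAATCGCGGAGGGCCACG, chr22:28800603-28800621, minus strand), PDIA6, CANX, HERPUD1 and, at 2 places, HSP90B1. The CCAAT box alone was in 25 of the 31 members (80.6%) and in 39.7% of all genes with a window. The unfolded protein response element UPRE was in DNAJC10 and in HYOU1, where it overlaps the ERSE-II farther from the start and not the one shown (6.45% against 0.927%), and the amino acid response element AARE in HERPUD1 (3.23% against 4.46%). The TEAD core GGAATG was in 1 of the 31 members, ERN1 (3.23%), and in 16.7% of all genes with a window. A match is a string of letters and does not show binding. Sites outside the windows were not searched, so a window without a match does not show that a factor is absent from the gene.

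Total counts were between 58344026 and 64808615 a library, so that 3 counts corresponded to between 0.0463 and 0.0514 CPM (counts scaled to the library total). TEAD3 itself, the check of the labels, stood at 14.9, 20.3 and 21.0 CPM in the controls, replicates 1 to 3 in this order here and below, and at 4.70, 8.35 and 6.07 CPM in the knockdown (log2 fold change -1.55, SE 0.218, edgeR adjusted p = 0.0114). This call was lost without control replicate 3 or knockdown replicate 1 or 3 (edgeR adjusted p from 0.0532 to 0.0938). Of 11 glial and glioma marker genes, VIM, NES, SOX2, SOX9 and CD44 were well above 5 CPM in all 6 libraries, while GFAP lay between 0.375 and 1.80 CPM and OLIG2 had no count. Of 16 markers of other cell types, 11 passed the filter, so that most of this list was detected. None was called (against 0.655% of all tested genes). Control and knockdown did not overlap for 3 of them (27.3%, against 21.6% of all tested genes). The leukocyte gene PTPRC was at 0.122 CPM or less in every library, which does not speak for the rest of the list. Control replicates 1 and 2 stood apart in GC content. Over 13690 protein-coding genes, deviations from each gene's mean had Spearman correlations with transcript GC content of -0.46 and 0.56 in them. In the other libraries these lay between -0.19 and 0.14. With transcript length the correlation was 0.24, -0.10 and 0.23 in the controls and -0.26, -0.09 and -0.05 in the knockdown. Over the same genes the log2 fold change had a Spearman correlation of -0.22 with length and 0.0058 with GC content. TEAD3, the members and the called or top-ranked genes of the other lists were also tested without each library in turn.

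None of the 34 genes changed after TEAD3 knockdown at an adjusted p under 0.05 (edgeR quasi-likelihood test, Benjamini-Hochberg over 17723 genes). Of all tested genes 0.655% did, 0.451% higher and 0.203% lower. At that share 34 genes, or the smaller groups of them below, may hold no call. An unadjusted p under 0.05 was reached by PDIA4 and DERL1, both lower, which is 2 members or 5.88%. Of all tested genes 15.6% reached it, 8.15% higher and 7.43% lower. DESeq2 called none of the 33 members to which it gave an adjusted p (it gave DERL3 none), where it called 4.92% of all tested genes. The share called by limma-voom was 0.677% of all tested genes and none of the 34. The members' median log2 fold change was -0.02, with 15 above 0 and 19 below, beside a median of -0.0012 over all tested genes, of which 49.8% lay above 0. Control and knockdown libraries did not overlap for 4 members (11.8%), against 21.6% of all tested genes: XBP1 was higher, as were 11% of all tested genes, and PDIA3, PDIA4 and DERL1 were lower, as were 10.6%. Since the data are from bulk RNA, fewer cells with a transcript and less RNA per cell cannot be told apart.

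The intervals describe the precision of each fold change within this fit, with these libraries and this normalisation. They do not cover shifts between settings. With a correction for transcript length and GC content, MANF went from -0.04 to -0.19 (log2 fold change). The 95% interval of the fold change, which is not adjusted for the number of genes, lay within 1.5-fold in either direction for 32 of the 34 members, against 49.2% of all tested genes. It lay within 2-fold for 33 members, against 69.9%. The exceptions at 1.5-fold were SDF2L1 and DERL3, the latter with 12 to 46 counts a library. Most members are abundant, and interval width depends on abundance, so these shares are read as a description.

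**Figure D1:**
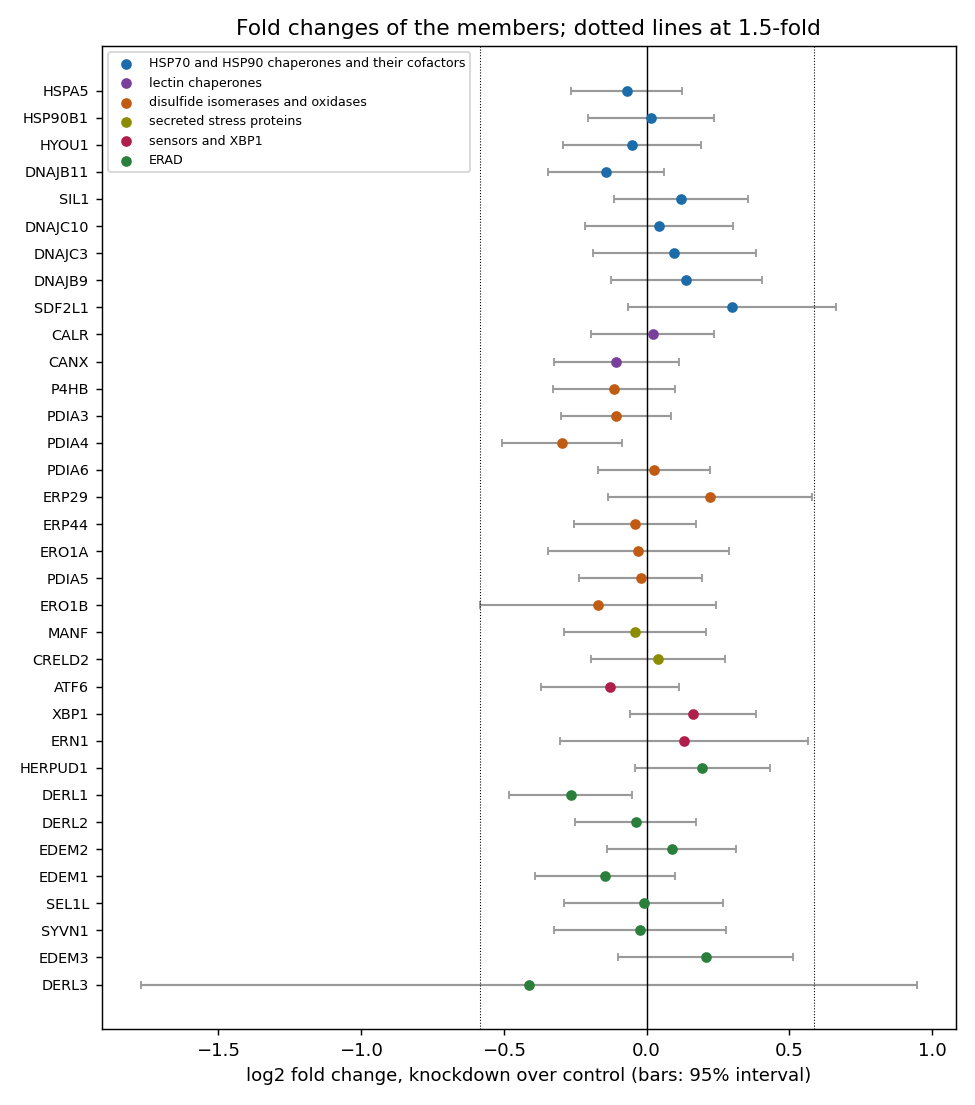
Log2 fold change of each of the 34 genes, knockdown over control, with its 95% interval from the edgeR fit (n = 3 libraries a group), coloured by role; dotted lines mark 1.5-fold. The intervals of PDIA4 and DERL1 lie below 0, those of the other 32 include 0, and only the DERL3 interval reaches past 1.5-fold on both sides.

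Levels differed widely between the members. Per kilobase of annotated transcript, calreticulin (CALR) was highest at 1416 ± 77.1 CPM in controls and 1436 ± 118 in the knockdown (SD, n = 3 each). P4HB, the catalytic disulfide isomerase that is also a subunit of collagen prolyl hydroxylase, followed at 586 ± 39.0 and 541 ± 37.0 CPM per kilobase. CANX, HSP90B1 and HSPA5 came next in controls at 232 ± 22.4, 204 ± 20.8 and 191 ± 8.48 CPM per kilobase, and the control values of HSP90B1 overlapped those of both neighbours, although CANX was above HSP90B1 within each control library. These orders were not tested. The sensor ERN1 was at 0.830 ± 0.119 CPM per kilobase and DERL3 lowest at 0.164 ± 0.0790. CALR, P4HB and CANX together took 53.4% of the members' summed CPM in controls and 53.3% in the knockdown. The sum over all 34 was 9711, 9973 and 9574 CPM in the controls against 9344, 9869 and 9284 CPM after knockdown, and the groups overlapped. The annotated transcript of DNAJC10 is 20129 bases long, so its value per kilobase may be too low.

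**Figure D2:**
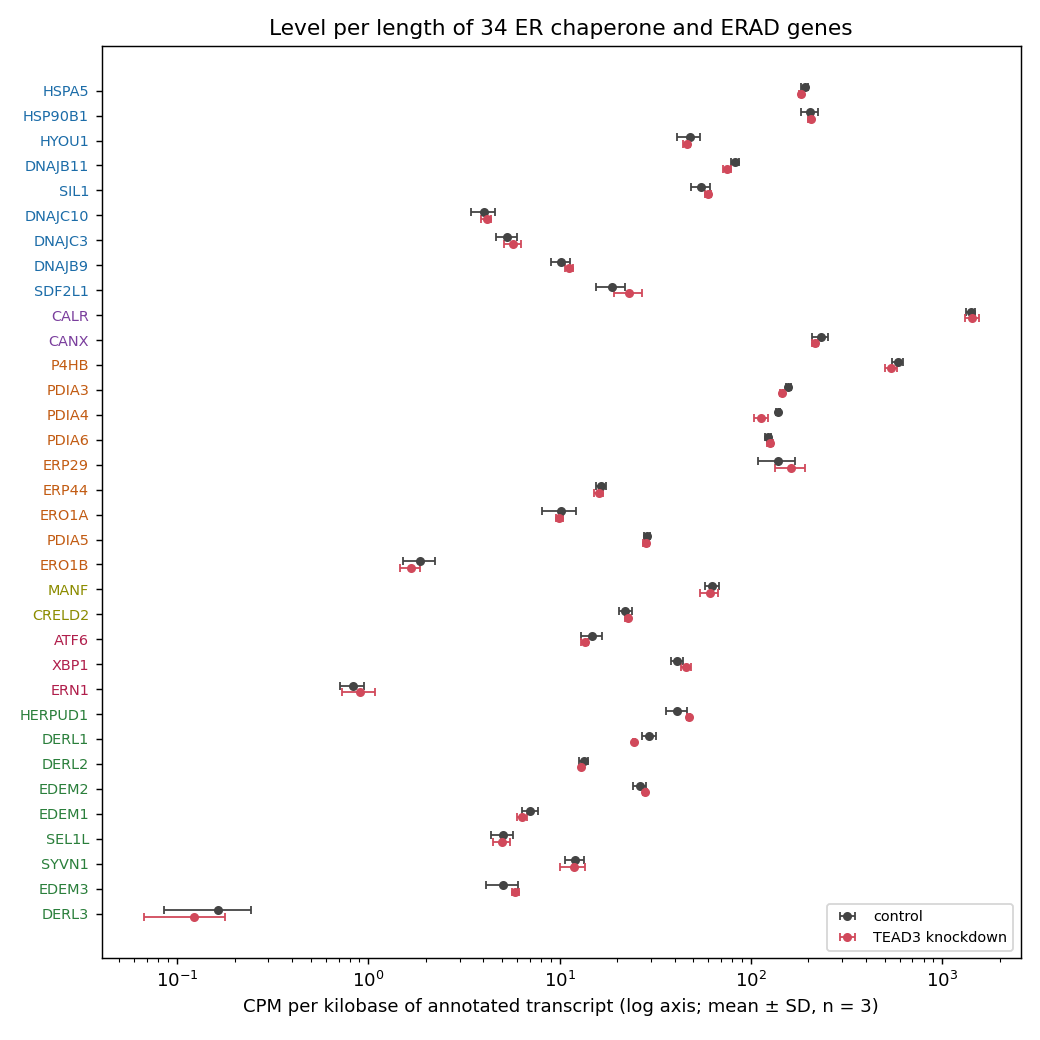
CPM per kilobase of annotated transcript on a log axis, mean ± SD over 3 libraries, control in grey and knockdown in red, gene names coloured by role. CALR at 1416 CPM per kilobase and DERL3 at 0.164 mark the ends of the range in controls, and for most genes the error bars of the groups overlap.

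None of the 9 chaperones of the HSP70 and HSP90 type and their cofactors passed the test, where 0.655% of all tested genes did. Of the 9, 6 had a fold change above 0 and 3 below. HSPA5 (ENSG00000044574, chr9:125234853-125241330), which encodes BiP and is the usual reporter of ER stress, was at 773, 760 and 710 CPM in controls and 720, 717 and 700 CPM in the knockdown. Knockdown replicate 3 lay below every control and the other 2 within the control range, and the fold was 0.953 with a 95% interval from 0.833 to 1.09 (edgeR adjusted p = 0.77). HSP90B1, the ER form of HSP90 (GRP94), was at 643, 524 and 579 CPM in controls and 605, 570 and 590 CPM in the knockdown. Here the control libraries enclosed all knockdown libraries, with a fold of 1.01 (0.867 to 1.18). HYOU1, a nucleotide exchange factor for BiP, had 203, 251 and 197 CPM in controls and 200, 215 and 213 CPM in the knockdown. Control replicate 2 was the highest of the 6.

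SIL1, the other exchange factor for BiP in the list, had a log2 fold change of 0.12 (-0.11 to 0.35). The J-domain cochaperones DNAJB9, DNAJB11, DNAJC3 and DNAJC10 had 0.14, -0.14, 0.10 and 0.04. SDF2L1, which works with DNAJB11 and is one of the smallest transcripts at 865 bases, had 15.3, 19.5 and 14.0 CPM in controls and 23.6, 16.9 and 19.6 CPM in the knockdown. Knockdown replicates 1 and 3 were above every control, knockdown replicate 2 was below control replicate 2, and the log2 fold change was 0.30 (-0.07 to 0.66, edgeR adjusted p = 0.422). With a correction for transcript length and GC content this became 0.06.

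The lectin chaperones hold glycoproteins in the ER until they fold. Neither passed the test. CALR was at 2591, 2862 and 2629 CPM in controls and 2636, 2989 and 2575 CPM in the knockdown, a fold of 1.01 (0.874 to 1.18). CANX, the membrane-bound form, was at 1056, 880 and 1032 CPM in controls and 883, 940 and 936 CPM in the knockdown. Its control replicate 2 fell below all knockdown libraries while the other controls stood above them, with a fold of 0.929 (0.798 to 1.08).

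Among the disulfide isomerases and oxidases, which form and reshuffle disulfide bonds, none of 9 passed the test (0.655% of all tested genes did). Of these 9, 7 lay below 0, and PDIA4 had the largest difference. PDIA4 (ENSG00000155660, chr7:149003062-149028641), an isomerase with several thioredoxin domains, was at 390, 409 and 411 CPM in controls and 299, 352 and 334 CPM in the knockdown. Every knockdown library was below every control, at a log2 fold change of -0.30 (SE 0.096, interval -0.51 to -0.09, unadjusted p = 0.0103, edgeR adjusted p = 0.179). It had the smallest adjusted p of the 34, and over the alternatives that value lay no lower than 0.0576, with DESeq2. PDIA3, which pairs with the lectin chaperones, also did not overlap between groups, at 596, 595 and 564 CPM against 541, 556 and 532 CPM. The difference was small, a log2 fold change of -0.11 (-0.30 to 0.09).

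P4HB had a log2 fold change of -0.11, PDIA5 of -0.02, PDIA6 of 0.03 and the retention factor ERP44 of -0.04. ERP29, a family member without the redox-active site, was the most variable abundant member. Its values were 227, 299 and 199 CPM in controls and 337, 237 and 272 CPM in the knockdown, a coefficient of variation of 21.4% and 18.0%. The groups overlapped (log2 fold change 0.22, -0.13 to 0.58), and the value moved with single libraries, to 0.0783 without knockdown replicate 1 and 0.40 without control replicate 2. The oxidases that recharge the isomerases, ERO1A and ERO1B, had -0.03 and -0.17. ERO1A was at 60.3, 41.0 and 59.9 CPM in controls, with control replicate 2 low, and between 50.9 and 55.1 CPM in the knockdown.

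**Figure D3:**
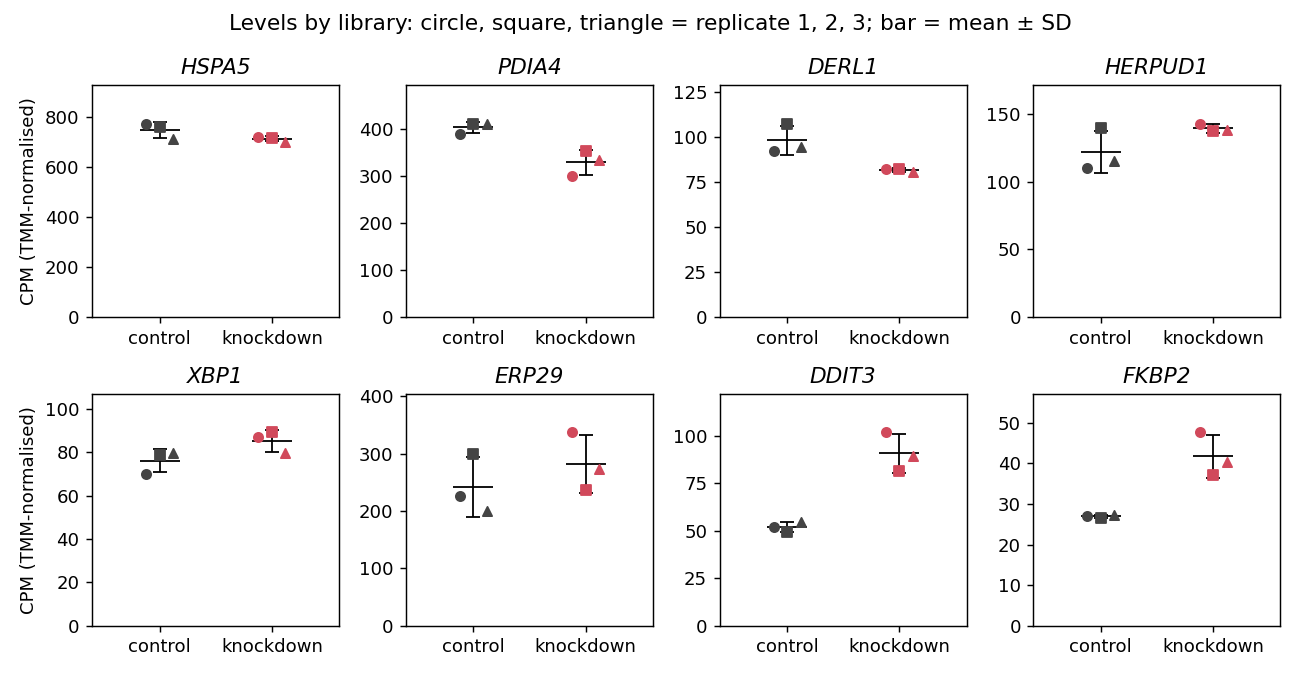
TMM-normalised CPM in each library for 6 of the 34 genes and for DDIT3 and FKBP2, with control in grey and knockdown in red; symbols give the replicate number and bars the mean ± SD (n = 3). PDIA4 and DERL1 lie lower in all knockdown libraries (328 against 403 CPM and 81.7 against 98.3 CPM on average), HSPA5, HERPUD1 and ERP29 overlap, and DDIT3 goes from 51.8 to 90.7 CPM.

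CRELD2 and MANF, stress proteins that are released from cells and are sensitive markers of the ATF6 arm, did not pass the test. CRELD2 was at 33.6, 38.0 and 33.1 CPM in controls and 37.1, 34.8 and 35.8 CPM in the knockdown, and MANF at 68.0, 79.2 and 69.7 against 79.0, 67.9 and 63.9 CPM. The folds were 1.03 (0.875 to 1.21) and 0.972 (0.818 to 1.15). In both genes the groups overlapped.

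Of the sensors, ATF6 was at 113, 96.1 and 124 CPM in controls and 96.7, 104 and 103 CPM in the knockdown, with a log2 fold change of -0.13 (-0.37 to 0.11). ERN1 was low, at 6.22, 7.59 and 5.81 CPM against 6.61, 6.13 and 8.72 CPM, and its interval from -0.30 to 0.56 was wide. XBP1 (ENSG00000100219, chr22:28794555-28800597), which is both an effector and a target of the response, was at 69.9, 78.8 and 79.5 CPM in controls and 86.9, 89.2 and 79.6 CPM in the knockdown. The groups did not overlap, though knockdown replicate 3 and control replicate 3 were nearly level, and the log2 fold change was 0.16 (-0.06 to 0.38, edgeR adjusted p = 0.469). The counts are per gene and do not separate spliced from unspliced XBP1, nor do they measure the cleavage of ATF6 or the phosphorylation of IRE1.

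None of the 9 ERAD genes was called, where 0.655% of all tested genes were. DERL1 (ENSG00000136986, chr8:123013164-123042423), a channel component for export to the cytosol, was at 92.5, 108 and 94.7 CPM in controls and 82.3, 82.6 and 80.4 CPM in the knockdown. All knockdown libraries lay below the lowest control, with a log2 fold change of -0.27 (SE 0.098, -0.48 to -0.05, unadjusted p = 0.0198, edgeR adjusted p = 0.232). Its paralog DERL2 was at 57.5, 52.9 and 58.1 CPM against 54.5, 54.6 and 55.1 CPM, inside the control range, at -0.04 (-0.25 to 0.17). Whether DERL1 and DERL2 differed in response was not tested. DERL3 did not exceed 0.701 CPM in any library.

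HERPUD1, a membrane component of the ubiquitin ligase complex and a target of both ATF6 and ATF4, was at 110, 140 and 115 CPM in controls and 143, 137 and 138 CPM in the knockdown. The knockdown libraries were close together and control replicate 2 lay among them, with a log2 fold change of 0.19 (-0.04 to 0.43, edgeR adjusted p = 0.421). Without control replicate 2 it was 0.30 (edgeR adjusted p = 0.0595). SYVN1, the ligase itself, and its partner SEL1L had -0.02 and -0.01. The mannosidase-like EDEM1, EDEM2 and EDEM3, which mark glycoproteins for disposal, had -0.15, 0.09 and 0.21. EDEM3 was at 39.5, 27.6 and 38.3 CPM in controls and 40.9, 38.7 and 42.2 CPM in the knockdown, and control replicate 2 was the low one, without which the log2 fold change was 0.0580. Overlapping exons make counts uncertain for genes such as SYVN1, which shares exons with FAU on its own strand, and for DERL1, P4HB and HSP90B1, which overlap a gene on the opposite strand, since the sources used here do not give the strand setting of the counting.

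The deviations of the members in the controls ran with base composition and with transcript length. Over the 34 members the Spearman correlation between the deviation of a gene and its transcript GC content was -0.59, 0.76 and -0.46 in the controls, against -0.14, 0.25 and 0.12 after knockdown. With transcript length it was 0.58, -0.44 and 0.36 in the controls, against -0.26, -0.21 and 0.10 after knockdown. These are correlations across genes of 1 library, which share its depth, and are given as a description. In control replicate 2 the members above the median GC content had a median deviation of 0.12 and the others of -0.11 (log2), and in control replicate 1 these were -0.07 and 0.09. The coefficient of variation was larger in controls than in the knockdown for 24 of 33 members at 5 CPM or more, with medians of 9.65% and 4.67%. The same was so for 66.6% of all tested genes at that level, with medians of 11.4% and 7.82%. Without control replicate 2 the members still gave no call, where 3.19% of 18490 genes were called, and 11 members (32.4%) had an unadjusted p under 0.05, 4 higher and 7 lower, against 22.7% of all genes (11.4% higher and 11.3% lower). After correction for length and GC content there was again no call among the members, where 3.26% of all genes were called, and 5 members (14.7%) had an unadjusted p under 0.05 against 20.4% of all genes. Over the members the log2 fold change had a Spearman correlation of -0.24 with transcript length and 0.06 with GC content. The part of length or GC content in any single difference was not tested.

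**Figure D4:**
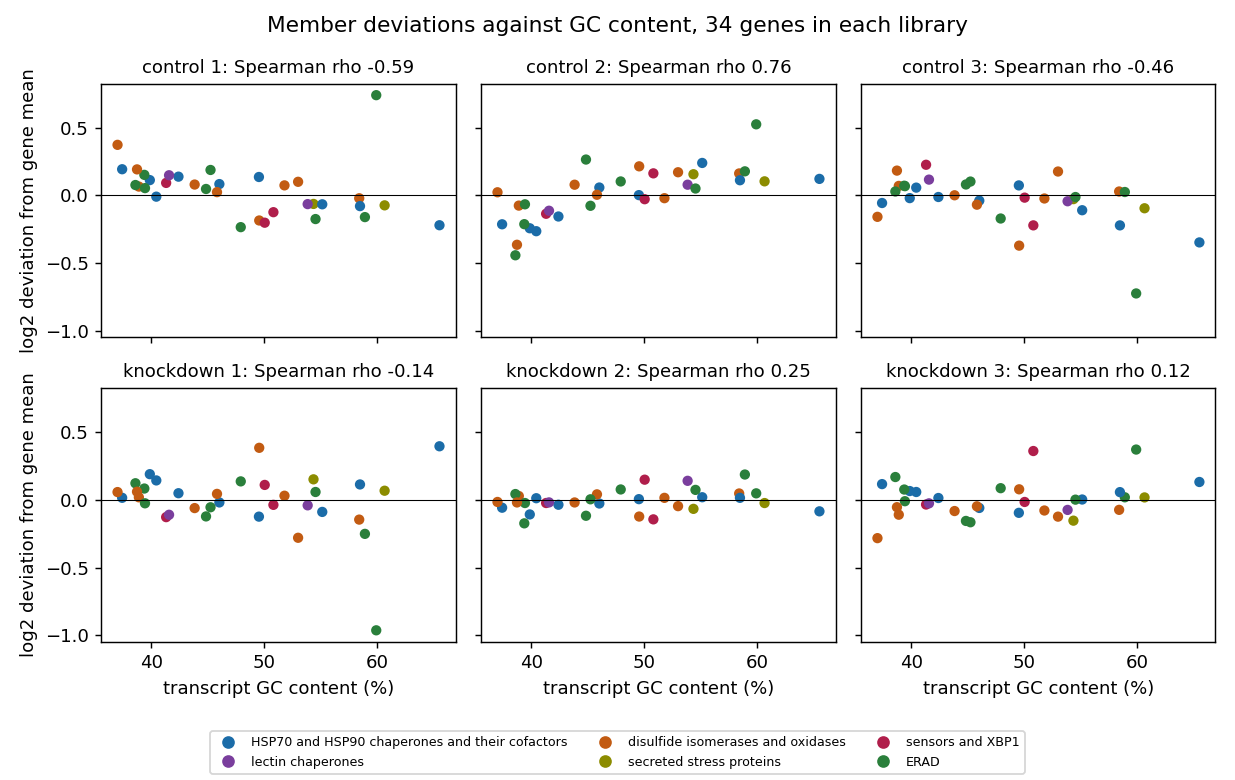
Deviation of each of the 34 genes from its mean over the 6 libraries (log2 CPM) against transcript GC content in percent, 1 panel a library, coloured by role. The points climb with GC content in control replicate 2 (rho 0.76) and descend in control replicate 1 (-0.59), and show little slope in the knockdown libraries.

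**Figure D5:**
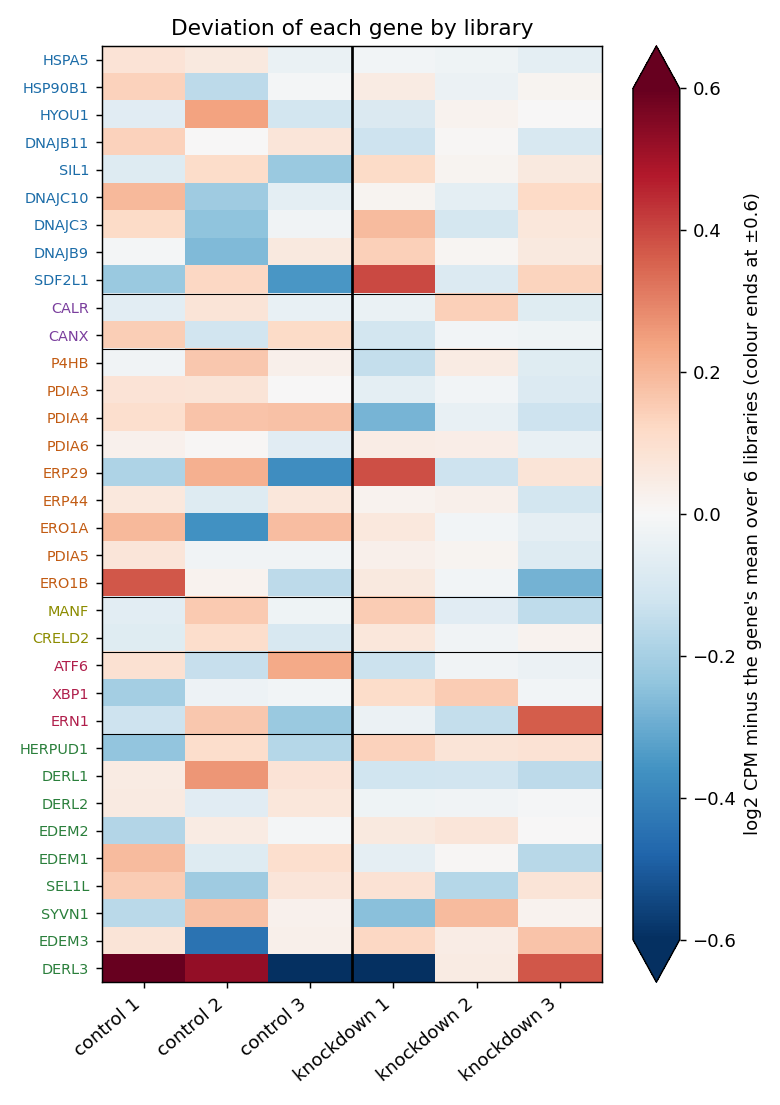
Deviation of log2 CPM from each gene's mean over the 6 libraries, genes in rows by role and libraries in columns, the black line dividing 3 controls from 3 knockdown libraries; the colour scale ends at ±0.6. The strongest colours are in DERL3, which did not exceed 0.701 CPM.

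Fold changes were also set beside the promoter matches shown above. The 11 members with an ERSE or ERSE-II match had a median of 0.02 and a range from -0.17 (ERO1B) to 0.30 (SDF2L1), with 7 above 0 and none called. The 20 with a window and no match had a median of -0.02 and a range from -0.30 (PDIA4) to 0.22 (ERP29), with 8 above 0 and none called. PDIA3, DERL1 and DERL3 had no window and are in neither set. Their log2 fold changes were all below 0, at -0.11, -0.27 and -0.41. No test of the difference between these sets was made.

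In the rest of the unfolded protein response, 1 gene was called. Of 18 genes of unfolded protein response signalling outside the members, 1 was higher and none lower (5.56% against 0.655% of all tested genes), while an unadjusted p under 0.05 was found for 5 higher and 1 lower (33.3% against 15.6%). The called gene was DDIT3, which encodes the transcription factor CHOP, at 51.9, 49.2 and 54.3 CPM in controls and 102, 81.1 and 89.2 CPM in the knockdown (log2 fold change 0.81, SE 0.110, edgeR adjusted p = 0.0093). The call was lost without knockdown replicate 1 or 3 (edgeR adjusted p of 0.0577 and 0.0697). With the length and GC correction the log2 fold change of DDIT3 was 0.61 and still called (edgeR adjusted p = 0.00514). The exons of DDIT3 overlap other genes on both strands. PPP1R15A, the phosphatase subunit GADD34 that reverses PERK signalling, was at 74.2, 83.0 and 79.6 CPM against 104, 111 and 117 CPM and did not pass the threshold (0.49, edgeR adjusted p = 0.0559). It was called by DESeq2 (adjusted p = 0.000527), and by edgeR after the length and GC correction (adjusted p = 0.0116) and without control replicate 2 (adjusted p = 0.0275). No other alternative called PPP1R15A, with an edgeR adjusted p of up to 0.33 (without knockdown replicate 3). TRIB3 and ATF4, which like DDIT3 are placed in the PERK arm, had 0.73 and 0.24 with no overlap between groups. They were not called (edgeR adjusted p of 0.0682 and 0.228). These genes also respond to amino acid shortage through other kinases of the same factor. The PERK gene itself, EIF2AK3, had -0.26 (edgeR adjusted p = 0.41), and ATF6B, the ATF6 paralog, -0.27 (0.349). CREB3 (0.26, edgeR adjusted p = 0.296) and NFYA (-0.25, edgeR adjusted p = 0.314) also had an unadjusted p under 0.05. Which arm any of these differences came through was not tested. The list median was -0.03. The intervals of DDIT3's fold and HSPA5's fold were 1.48 to 2.07 and 0.833 to 1.09.

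Further folding enzymes and glycan quality control genes gave 1 higher call among 32 tested and none lower (3.12% against 0.655% of all tested genes), and 4 higher and 2 lower with an unadjusted p under 0.05 (18.8% against 15.6%). This was FKBP2, an ER prolyl isomerase, at 27.0, 26.5 and 27.4 CPM in controls and 47.7, 37.2 and 40.2 CPM in the knockdown (log2 fold change 0.63, SE 0.118, edgeR adjusted p = 0.042). The call was lost without control replicate 1 or 3 or any single knockdown library (edgeR adjusted p from 0.0581 to 0.214), and with the length and GC correction (0.41, 0.0592), no filter (0.113), the replicate block (0.0908) and scaling by library size alone (0.0521). CLGN, a calnexin homolog, had 0.44 (edgeR adjusted p = 0.165) and was called by DESeq2 (adjusted p = 0.0373) and in no other alternative. FKBP10, a prolyl isomerase that acts on collagen, lay lower with no overlap between groups and was not called (-0.43, edgeR adjusted p = 0.165). The list had 25 of 32 above 0 and a median of 0.06.

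None of 34 other ERAD genes was called (against 0.655% of all tested genes). An unadjusted p under 0.05 was found for 1 higher and 2 lower (8.82% against 15.6%), and the median was -0.03. OS9, a lectin that delivers glycoproteins to the SEL1L complex, was at 316, 339 and 310 CPM in controls and 247, 282 and 249 CPM in the knockdown (log2 fold change -0.31, edgeR adjusted p = 0.165). It was called by DESeq2 (adjusted p = 0.0469) and by edgeR with the length and GC correction (adjusted p = 0.0451). No other alternative called OS9, with an edgeR adjusted p of up to 0.522 (without knockdown replicate 3).

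None of 35 translocon and N-glycosylation genes was called (against 0.655% of all tested genes). Of them 10 (28.6%, against 15.6% of all tested genes) had an unadjusted p under 0.05, 8 higher and 2 lower, and the median was 0.08. SRP68, a protein of the signal recognition particle, had -0.36 (edgeR adjusted p = 0.127) and TMEM258, a small subunit of oligosaccharyltransferase, 0.52 (0.156). DESeq2 called both (adjusted p of 0.0211 and 0.0243). After correction for length and GC content, edgeR called SRP68 (-0.32, adjusted p = 0.0409) and not TMEM258, whose value was 0.21 (adjusted p = 0.223). No other alternative called either gene. None of 7 retrieval genes, the KDEL receptors among them, was called, and none had an unadjusted p under 0.05. Of all tested genes 0.655% and 15.6% did. KDELR1 was at -0.11 and RER1, which retrieves membrane proteins, at -0.14.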

How the data were processed

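For 6 libraries the authors deposited unscaled counts, whole numbers for each gene. The genome was GRCh38 and the tools named were HISAT2 2.0.4, cutadapt 1.9, edgeR, DESeq2 and StringTie 1.3.4d, per the submitters' processing notes. What each tool did, the annotation and the strand setting are not given in the sources used. Symbols matched 60588 of 60612 identifiers. Positions, lengths and GC content came from GENCODE release 29 (GRCh38). Lengths are those of the longest principal coding transcript.

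In R 4.3.3 and edgeR 4.0.16, groups were compared by the quasi-likelihood test (two-sided, TMM normalisation, filterByExpr with a minimum of 10 counts, no covariate). Benjamini-Hochberg adjustment ran over all tested genes, with a threshold of 0.05. Alternatives were DESeq2 1.42.0, limma-voom (limma 3.58.1), other scalings, no filter, a block for the replicate number, the omission of each library, and a per-library loess (span 0.3, 13690 genes) for length and GC content. Levels are TMM-normalised CPM. Deviations used a prior count of 2. Scripts were tested on simulated data.

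The members, the lists and the alternatives were chosen with earlier results of these data known. The text names TEAD3, all 34 members, and of each other list the called genes or the 2 with the smallest p. One result under this rule is not reported here. ATF4, TRIB3, EIF2AK3, ATF6B, CREB3, NFYA, FKBP10 and the marker genes were named after their values were seen. Promoter sequences are RefSeq's. The floor of 3 counts covers counting error only.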

Additional observations from a re-analysis of the deposited data

How the results depend on the processing

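No member was called in any of 14 alternatives (DERL3 had no adjusted p from DESeq2), and the members' median stayed between -0.04 (without control replicate 2) and 0.0026 (without control replicate 1). The share of all tested genes called lay between 0.105% (no filter on low counts) and 4.92% (DESeq2). At such shares 34 genes may hold no call, so its absence is not read as stability of the members. Members with an unadjusted p under 0.05 went from 2 (5.88%, against 15.6% of all tested genes) to 11 without control replicate 2 (32.4%, against 22.7%). The count of calls over all genes changed with the setting. From 116 it went to 31 with no filter on low counts, 872 with DESeq2 and 63 with the replicate block. It was 578 with the length and GC correction (278 higher and 300 lower, where it had been 80 and 36). With 1 library left out it lay between 20 (without knockdown replicate 3) and 589 (without control replicate 2). Nothing in the labels says that a replicate number marks a shared culture, so it was not taken as a pairing and the block was an alternative. Correlations between the deviations of same-numbered libraries, here taken from each gene's mean within its group, were 0.0056, -0.02 and 0.0083. With 3 libraries a group these cannot settle whether the numbers mark pairs. TEAD3 was -1.56 with no filter (edgeR adjusted p = 0.0639) and between -1.80 and -1.37 with 1 library left out.

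The sign of the fold change held in every alternative for 20 members and not for 14. With the length and GC correction the sign turned for HSPA5 (0.00778), DNAJC10 (-0.0463), CRELD2 (-0.0636), HYOU1 (0.0389) and CALR (-0.0135). With 1 library left out the log2 fold change crossed 0 for HSP90B1 (-0.0576 to 0.0921), PDIA5 (-0.0387 to 0.0124), PDIA6 (-0.000671 to 0.0559), ERP44 (-0.0889 to 0.00269), DNAJC10 (-0.0493 to 0.16), ERN1 (-0.0374 to 0.25), MANF (-0.13 to 0.0266), HYOU1 (-0.12 to 0.0645), CALR (-0.0472 to 0.0642), SEL1L (-0.11 to 0.0693), SYVN1 (-0.13 to 0.0891) and ERO1A (-0.19 to 0.0618). The cause was not tested. DERL3 had the fewest counts of the members, 12 to 46 a library, and the widest interval.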

Other observations

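BCAP29, an ER membrane protein of the retrieval list, was at 14.2 CPM in control replicate 1 and between 38.3 and 52.1 CPM in the other 5 libraries. Its exons overlap those of WBP1LP2 on its own strand and a gene on the opposite strand, and its log2 fold change of 0.26 was not called (edgeR adjusted p = 0.783). BCAP31, its paralog, lay between 423 and 533 CPM with no such gap.

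Of 9 tested glial and glioma markers, 6 did not overlap between groups (66.7%, against 21.6% of all tested genes), 2 higher and 4 lower. None was called by edgeR (against 0.655% of all tested genes). An unadjusted p under 0.05 was found for 5 (55.6%, against 15.6%), 2 higher and 3 lower. The list median was -0.18, with 3 above 0 and 6 below. The astrocyte gene GFAP, low throughout, was at 1.25, 1.32 and 1.80 CPM in controls and 0.545, 0.375 and 0.796 CPM in the knockdown, without overlap and not called (log2 fold change -1.34, edgeR adjusted p = 0.143). FABP7 and SLC1A3, markers of radial glia and astrocytes, were at higher levels in the knockdown without overlap between groups (0.76 and 0.61, edgeR adjusted p of 0.166 and 0.157), also not called. GFAP, FABP7 and SLC1A3 were chosen after their values were seen. Both of the higher markers without overlap are given with values, and of the 4 lower only GFAP is.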
